A study of Homo sapiens with 18 samples.

Results

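The DLX genes encode homeodomain transcription factors related to Distal-less of the fly, and 7 of the 23622 genes in the RNA-seq count table were taken here as the family, namely DLX1, DLX2, DLX3, DLX4, DLX5, DLX6 and the long non-coding RNA gene DLX6-AS1. The members were chosen by name, with their difference between 2 ovarian cancer lines already seen in these data, so that difference is described below and not tested. A2780 is an ovarian carcinoma line that is sensitive to cisplatin, and Acis is its resistant derivative, made by long exposure to rising doses of the drug and dosed again with 1 µM cisplatin every 3 passages. Each line was either left untreated (control) or kept for 3 h in medium with 200 µM cisplatin, a platinum drug that forms adducts on DNA, and each of these 4 groups had 3 RNA-seq libraries and 1 ATAC-seq peak list. The wells were seeded in triplicate for each condition, so a p-value measures the spread between these libraries, which may be technical. Each line is a single line, so a line difference cannot be told apart from any other difference between these 2 cultures.

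In mammals the DLX genes lie in 3 pairs of neighbours that are transcribed towards each other, and the members of a pair share enhancers. They are known for their part in the patterning of the jaw and limbs and in the forebrain, where DLX1, DLX2, DLX5 and DLX6 drive the formation of inhibitory interneurons. DLX3 acts in the placenta, the epidermis and the hair follicle, DLX4 is expressed in the placenta, and DLX5 and DLX6 act in bone formation. DLX6-AS1 is transcribed from the strand opposite to DLX6, through an enhancer of the DLX5 and DLX6 pair.

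In GENCODE 44 on GRCh38, DLX1 (ENSG00000144355, chr2:172084740-172089677, plus strand) and DLX2 (ENSG00000115844, chr2:172099438-172102900, minus strand) lie at 2q31. DLX4 (ENSG00000108813, chr17:49968588-49974959, plus strand) and DLX3 (ENSG00000064195, chr17:49990005-49995224, minus strand) lie at 17q21. DLX5 (ENSG00000105880, chr7:97020396-97024950, minus strand) and DLX6 (ENSG00000006377, chr7:97005553-97011040, plus strand) lie at 7q21, and DLX6 lies inside the 58.9 kb span of DLX6-AS1 (ENSG00000231764, chr7:96955141-97014088, minus strand). The 6 coding genes span 3.5 to 6.4 kb. The libraries were stranded and the authors counted reads by strand, so reads of DLX6 and DLX6-AS1 were told apart.

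Promoter sequences from RefSeq (GRCh38.p14) were at hand for 4 of the 7 members, DLX1, DLX2, DLX6 and DLX6-AS1, and not for DLX3, DLX4 and DLX5. Of these, 3 promoters are printed as the 250 bases before the start on the strand of the gene. DLX6 and DLX6-AS1 were taken as 7q21 genes with many counts in A2780 cells and at most 1 in an Acis library. DLX2 was taken as a member with similar counts in both lines. Windows of 300 bases (hg38, plus strand) around the A2780 control summit of 2 ATAC-seq peaks at 7q21 are also printed. Of these, 1 is for the peak found in all 4 lists and 1 for a peak between DLX6 and DLX5 that only the A2780 lists held. Capitals mark TAATTA, the core bound by DLX homeodomains, CCAAT and TGACGT, the binding letters of NF-Y and of the CREB and ATF factors, on either strand.
DLX6-AS1 promoter, chr7:97014066-97014315: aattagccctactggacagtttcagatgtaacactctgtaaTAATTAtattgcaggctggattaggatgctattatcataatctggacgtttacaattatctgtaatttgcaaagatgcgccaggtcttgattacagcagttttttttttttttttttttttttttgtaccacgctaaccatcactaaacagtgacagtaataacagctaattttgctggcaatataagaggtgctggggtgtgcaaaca
DLX6 promoter, chr7:97005303-97005552: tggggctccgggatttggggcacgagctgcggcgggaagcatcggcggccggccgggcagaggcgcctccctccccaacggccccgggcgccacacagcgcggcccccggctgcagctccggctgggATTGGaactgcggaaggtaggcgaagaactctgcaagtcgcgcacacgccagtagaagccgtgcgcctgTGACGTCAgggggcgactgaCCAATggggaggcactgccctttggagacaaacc
DLX2 promoter, chr2:172102901-172103150: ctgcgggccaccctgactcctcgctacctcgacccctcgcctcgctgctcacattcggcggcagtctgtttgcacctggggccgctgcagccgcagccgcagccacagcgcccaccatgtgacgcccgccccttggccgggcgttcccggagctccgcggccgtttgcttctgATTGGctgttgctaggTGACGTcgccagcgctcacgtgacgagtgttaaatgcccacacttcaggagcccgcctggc
peak in all 4 lists, chr7:97027659-97027958: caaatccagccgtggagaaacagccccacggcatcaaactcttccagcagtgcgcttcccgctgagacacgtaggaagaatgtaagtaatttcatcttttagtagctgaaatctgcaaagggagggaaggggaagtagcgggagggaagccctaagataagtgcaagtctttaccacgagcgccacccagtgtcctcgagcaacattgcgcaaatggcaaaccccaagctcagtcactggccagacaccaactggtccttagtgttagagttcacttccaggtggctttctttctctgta
peak in the A2780 lists, chr7:97016823-97017122: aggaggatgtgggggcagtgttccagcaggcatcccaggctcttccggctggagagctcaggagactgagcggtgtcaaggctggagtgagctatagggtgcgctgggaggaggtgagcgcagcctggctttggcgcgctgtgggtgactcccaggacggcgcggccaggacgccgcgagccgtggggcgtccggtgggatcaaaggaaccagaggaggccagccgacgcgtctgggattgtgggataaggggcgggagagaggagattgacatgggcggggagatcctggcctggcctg

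The 250 bases before DLX6-AS1 were poor in GC (35.2%) and held 3 CpG dinucleotides, against a median of 58.0% GC and 11 CpG over 35116 promoters. The DLX6 promoter, on the other strand, had 70.0% GC and 25 CpG, and those of DLX1 and DLX2 had 63.6% and 68.0% GC with 23 and 25 CpG. The DLX1 promoter by RefSeq, chr2:172085257-172085506, lies downstream of the GENCODE start of DLX1 at 172084740, which was used for the start peaks. DLX6-AS1 was the only one of the 4 promoters with TAATTA, which 4.35% of all promoters hold. CCAAT occurred in the promoters of DLX6 (2 matches), DLX1 (2) and DLX2 (1), and in 32.0% of all promoters. TGACGT was found in those of DLX2 (1) and DLX6, where its matches on the 2 strands overlap, and in 7.1% of all promoters. Neither of the printed peak windows held any of these motifs, which 3.55%, 32.1% and 6.14% of the 34979 A2780 control peak windows held in the same order.

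The 12 libraries held 4130644 to 5072216 counts on genes, without a library that stood apart in depth. Levels are given as normalised counts, which are counts scaled by the TMM method of edgeR to the mean library size, and as CPM per kb (counts scaled to library size and to the length of the exons) when genes are compared. Of the marker genes of ovarian carcinoma looked up, 3 of 12 were among the genes of the count table, with summed counts per group of 2 to 13 for EPCAM, 11 to 54 for KRT8 and 77 to 449 for KRT18, while PAX8, WT1 and MUC16 were not among them. Of 12 markers of leukocytes, endothelium, fibroblasts and mural cells, 6 were in the table, including COL3A1 (4468 to 10885 summed counts per group) and ACTA2 (55 to 1784). PTPRC, PECAM1 and CDH5 were not in it. Genes were tested across the whole table with edgeR's quasi-likelihood test, and a gene is named here as "called" if its Benjamini-Hochberg adjusted p was under 0.05 and it differed at least 2-fold (1 on the log2 scale, either way). By this rule 4 markers of the other cell types were lower in Acis than in A2780 control libraries (ACTA2, PDGFRB, DCN and LUM) and COL3A1 was higher. Of the carcinoma markers KRT18 was higher and KRT8 lower in Acis cells. The part of these markers in the DLX values was not tested. Fewer cells that express a gene and less of its RNA per cell cannot be told apart in such bulk libraries.

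The 7q21 genes were expressed in A2780 cells and had almost no counts in Acis cells. DLX6-AS1 had the most counts of the family in A2780 cells, with normalised counts of 2081, 2056 and 2067 in the control libraries and 1673, 1726 and 1716 after cisplatin. In Acis cells 5 of the 6 libraries had no count of DLX6-AS1 and 1 cisplatin library had 1. DLX5 had raw counts of 520, 520 and 480 in A2780 control and 596, 556 and 585 in A2780 cisplatin libraries, and no count in any of the 6 Acis libraries. DLX6 had 479, 524 and 504 normalised counts in A2780 control and 541, 535 and 504 in A2780 cisplatin libraries, and 1 count in 1 of the 6 Acis libraries. For these 3 genes every A2780 library was far above every Acis library.

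Against a floor of 3 counts over the group of Acis control libraries, the level in A2780 control libraries was at least 458-fold higher for DLX5, at least 461-fold for DLX6 and at least 1902-fold for DLX6-AS1. In the cisplatin libraries DLX5 was at least 571-fold higher in A2780 cells. The ratio of A2780 to Acis cisplatin libraries was 1621 for DLX6 (95% counting interval 290.5 to 64070) and 5243 for DLX6-AS1 (940.6 to 207100), each resting on 1 count in Acis cells. These intervals and floors cover counting error only.

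The 17q21 genes went the other way and were low in both lines. In A2780 cells DLX3 had raw counts of 1, 2 and 1 in the control and 5, 6 and 4 in the cisplatin libraries. In Acis cells it had 71, 86 and 71 in the control and 88, 97 and 116 in the cisplatin libraries. All 6 Acis libraries lay above all 6 A2780 libraries, by 63.0-fold in control (95% counting interval 24.3 to 233) and 20.3-fold in cisplatin libraries (12.1 to 36.8). The counts of DLX4 were 3, 3 and 1 (control) and 6, 3 and 4 (cisplatin) in A2780 cells, and 18, 26 and 16 (control) and 23, 22 and 15 (cisplatin) in Acis cells. Its lines did not overlap either, with ratios of Acis to A2780 of 9.47 in control (4.33 to 24.6) and 4.68 in cisplatin libraries (2.54 to 9.29).

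The 2q31 genes were expressed in both lines at similar levels. DLX1 had 1083, 1082 and 1113 normalised counts in the control and 1190, 1172 and 1145 in the cisplatin libraries of A2780 cells. In Acis cells it had 1309, 1265 and 1305 in the control and 1306, 1309 and 1329 in the cisplatin libraries. DLX2 had 1069, 1089 and 1115 (control) and 1145, 1085 and 1143 (cisplatin) in A2780 cells, and 1345, 1338 and 1318 (control) and 1203, 1217 and 1272 (cisplatin) in Acis cells. For both genes the Acis libraries lay above the A2780 libraries of the same treatment without overlap. The ratio of Acis to A2780 control was 1.18 for DLX1 (95% counting interval 1.13 to 1.24) and 1.22 for DLX2 (1.17 to 1.28), and in cisplatin libraries it was 1.12 (1.07 to 1.18) and 1.09 (1.04 to 1.146).

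**Figure D1:**
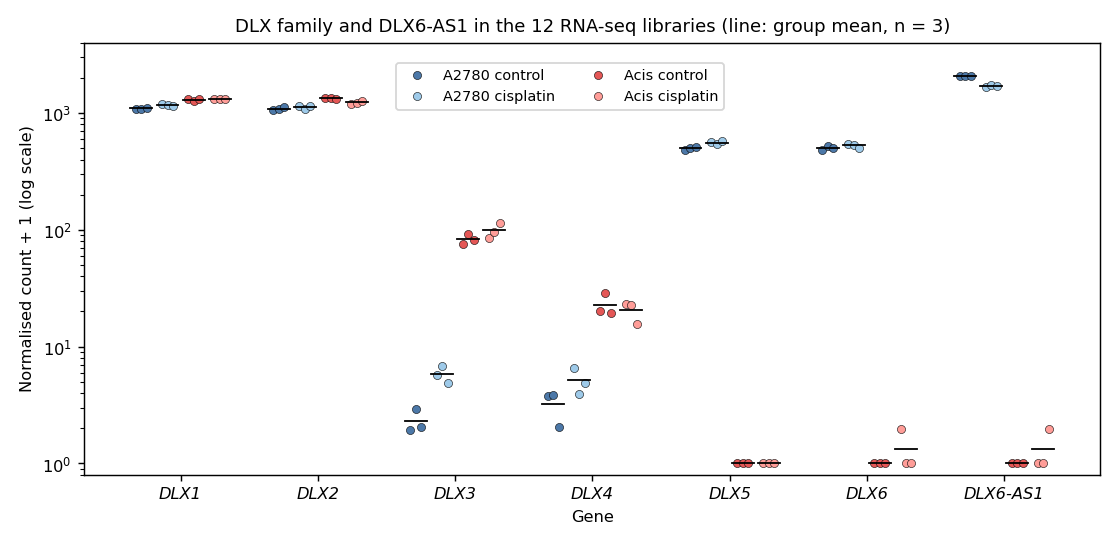
Normalised count plus 1 (log scale) of each member in the 12 libraries, with 3 points and their mean for each group. DLX5, DLX6 and DLX6-AS1 lie between 479 and 2081 in A2780 cells and at 0 or 1 count in Acis cells, DLX3 and DLX4 lie higher in Acis cells, and DLX1 and DLX2 lie near 1069 to 1345 in both lines.

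In both treatments, the groups of the 2 lines did not overlap for any of the 7 members, which the choice of the members used. Over all 15760 genes tested, 64.2% had no overlap between the untreated lines and 66.7% none between the treated lines. By the stricter rule for a call, 19.1% of genes were called between the untreated lines, and DLX1 and DLX2, which differed by less than 2-fold, do not meet it. Per length of exon, the order in A2780 control libraries was DLX2 (80.3 ± 1.71 CPM per kb, SD, n = 3), DLX1 (66.9 ± 1.09), DLX5 (62.6 ± 1.71), DLX6 (31.9 ± 1.45) and DLX6-AS1 (24.5 ± 0.15), each without overlap with the next. DLX4 (0.118 ± 0.0539) and DLX3 (0.105 ± 0.0433) followed, and these last 2 overlapped. In Acis control libraries the order was DLX2 (98.1 ± 1.04), DLX1 (79.2 ± 1.48), DLX3 (6.65 ± 0.664) and DLX4 (1.14 ± 0.274), again without overlap, with the 7q21 genes at 0. After cisplatin treatment DLX1 (71.6 ± 1.38) and DLX5 (69.8 ± 2.28) overlapped in A2780 cells, and the other neighbours in the order of the 5 high genes did not. The lengths join the exons of all annotated transcripts, with 1744 bases for DLX5, 3445 for DLX6 and 18450 for DLX6-AS1. The order depends on these lengths, and which transcripts were expressed was not tested.

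The 7q21 genes made up 58.4% ± 0.322 of all counts of the family in A2780 control libraries (SD, n = 3) and 54.8% ± 0.552 after cisplatin treatment. In Acis control libraries 96.2% ± 0.497 of the family's counts came from 2q31 and 3.82% ± 0.497 from 17q21. The 6 coding genes together had 3189 ± 64.3 normalised counts in A2780 control and 2731 ± 15.2 in Acis control libraries. The higher counts of DLX1, DLX2, DLX3 and DLX4 in Acis cells were thus smaller in sum than the counts of DLX5 and DLX6 in A2780 cells.

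To ask whether cisplatin treatment changed the members, the treated and untreated libraries of each line were compared in the same fit over 15760 genes. "Rose" and "fell" are used for an adjusted p-value under 0.05, whatever the size of the change. DLX6-AS1 fell in A2780 cells by 0.28 on the log2 scale (SE 0.03, adjusted p = 3.47e-08), a decrease to 0.824 of its control level. The 3 cisplatin libraries lay below the 3 control libraries without overlap, from 1673 to 1726 against 2056 to 2081 normalised counts. The adjusted p was 1.15e-07 with DESeq2 and 5.31e-10 to 7.1e-05 over all alternatives.

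Fold changes of the 2 coding genes of the locus were above 0. DLX5 rose in A2780 cells by a log2 fold change of 0.16 (SE 0.05, adjusted p = 0.00643 in edgeR), with cisplatin libraries at 538 to 575 above control libraries at 485 to 512. Its adjusted p was 0.117 with DESeq2 and 0.0555 without A2780 control replicate 1. DLX6 had a log2 fold change of 0.07 (SE 0.05, adjusted p = 0.253 in edgeR), and its groups, 504 to 541 and 479 to 524, overlapped.

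DLX1 rose in A2780 cells by 0.10 on the log2 scale (SE 0.03, adjusted p = 0.0156 in edgeR) with groups that did not overlap, and its adjusted p was 0.104 with DESeq2, 0.125 without the filter on low counts, 0.107 with the closest replicates merged, and 0.065 to 0.0815 without A2780 control replicate 1 or 2 or A2780 cisplatin replicate 1. DLX2 had a log2 fold change of 0.04 (SE 0.04, adjusted p = 0.315 in edgeR) and overlapping groups. DLX3 had 4 counts in the A2780 control libraries together and 15 in the cisplatin libraries, a ratio of 3.67 (95% counting interval 1.17 to 15.2), a log2 fold change of 1.78 (SE 0.64) and an adjusted p of 0.0239 in edgeR and 0.0601 in DESeq2. Without A2780 control replicate 1 or 3 or A2780 cisplatin replicate 2 the adjusted p of DLX3 was 0.0658 to 0.085. DLX4 had 7 and 13 counts and a log2 fold change of 0.83 (SE 0.59, adjusted p = 0.283 in edgeR).

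Thus in A2780 cells 3 of 7 members rose and 1 fell, where 21.2% of all genes tested rose and 28.2% fell. DLX3 was the only member called, where 5.62% of all genes were called, and DESeq2 called none and gave an adjusted p under 0.05 for 1 member, DLX6-AS1. All 7 members passed the filter on low counts, but DLX3 and DLX4 did so through the Acis libraries and the 7q21 genes through the A2780 libraries. DLX3 is among the 3 that rose, and its rise and its call rest on 4 and 15 counts in A2780 cells. In the fit to the A2780 libraries alone DLX3 was filtered out and 0 members were called. The count of members that rose is thus not a result about the family.

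With total counts as library size, the median over all genes of the log2 fold change in A2780 cells moved from -0.011 to 0.104. Under that scaling the fold change of DLX6-AS1 was -0.16 and those of DLX1, DLX2, DLX5 and DLX6 were 0.216, 0.162, 0.277 and 0.188. With this scaling DLX2 (adjusted p = 0.000296 in edgeR) and DLX6 (0.00278) also passed. Thus 5 of 7 members, DLX3 among them, rose and 1 fell, where 33.6% of all genes rose and 19.4% fell. DLX6-AS1 was below the median of all genes, and these 4 coding genes were above it, under both scalings.

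DLX6-AS1 is also the one long gene of the family. Among other genes with a span of 40 to 80 kb (2579 genes), the median log2 fold change in A2780 cells was -0.166, and 46.5% fell and 4.81% rose. Among other genes with a span of 3 to 7 kb, the range that holds the 6 coding members (1571 genes), the median was 0.247, and 7.07% fell and 49.6% rose. DLX1, DLX2, DLX5 and DLX6 lay below this median with fold changes of 0.04 to 0.16, and DLX6-AS1 lay below that of its length class. The part of gene length in the values of the members was not tested.

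The counts of DLX6-AS1 were also set against those of its neighbours within each library, where no scaling enters. These ratios reuse the same counts and also move with DLX5 and DLX6, so they are not separate evidence that DLX6-AS1 fell. The ratio of DLX6-AS1 to DLX6 counts was 4.35, 3.92 and 4.10 in A2780 control and 3.09, 3.22 and 3.40 in A2780 cisplatin libraries. The ratio of DLX6-AS1 to DLX5 was 4.29, 4.11 and 4.04 in control and 2.99, 3.21 and 2.99 in cisplatin libraries. Both ratios were lower in every cisplatin library than in every control library (two-sided exact permutation p = 0.1 each, the smallest that 3 against 3 libraries allow, and 0.167 after adjustment over 5 ratios).

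The ratio of DLX5 to DLX6 was close to 1 in both groups, at 0.995 ± 0.0353 in A2780 control and 1.06 ± 0.0713 in A2780 cisplatin libraries (SD, n = 3 each, exact permutation p = 0.3, with overlap). That of DLX1 to DLX2 was 1.00 ± 0.0101 in A2780 control and 1.04 ± 0.0393 in A2780 cisplatin libraries (n = 3 each, exact permutation p = 0.2, with overlap). In Acis cells it was 0.970 ± 0.0225 in control and 1.07 ± 0.0216 in cisplatin libraries, without overlap (n = 3 each, exact permutation p = 0.1).

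**Figure D2:**
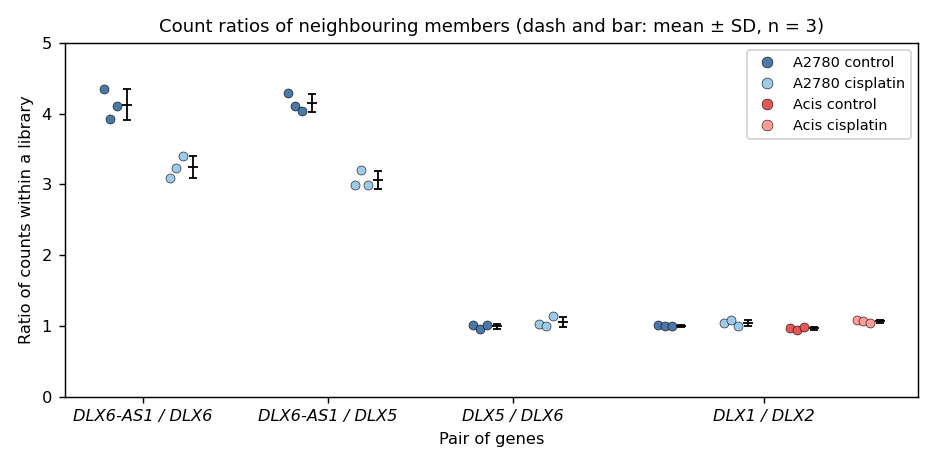
Ratio of raw counts of neighbouring members within each library, with the mean ± SD of 3 libraries beside the points. The ratio of DLX6-AS1 to DLX6 and to DLX5 lies between 3.92 and 4.35 in A2780 control and between 2.99 and 3.40 in A2780 cisplatin libraries, while DLX5 to DLX6 and DLX1 to DLX2 stay between 0.946 and 1.14.

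In Acis cells the 7q21 genes had 2 counts in all 6 libraries together, so no cisplatin effect could be given for them, and a change of RNA at that level was not detectable at this depth. Of the other 4 members, 1 fell and none rose, where 9.35% of all genes rose and 12.4% fell. DLX2 fell by 0.12 on the log2 scale (SE 0.03, adjusted p = 0.0151 in edgeR, 0.0548 in DESeq2), from 1318 to 1345 normalised counts in control libraries to 1203 to 1272 in cisplatin libraries, without overlap. With total counts as library size its log2 fold change was -0.062, with an adjusted p of 0.19 in edgeR, and without Acis cisplatin replicate 1 or 2 the adjusted p was 0.0891 and 0.0604, and with the closest replicates merged it was 0.0609. DLX1 had a log2 fold change of 0.02 (SE 0.03, adjusted p = 0.681 in edgeR).

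DLX3 had 228 counts in the Acis control and 301 in the Acis cisplatin libraries, a log2 fold change of 0.24 (SE 0.12, adjusted p = 0.164 in edgeR). DLX4 had 60 counts in each group and a log2 fold change of -0.16 (SE 0.24, adjusted p = 0.753 in edgeR), which became 0.05 without Acis control replicate 2 and 0.01 without Acis cisplatin replicate 3. No member was called in Acis cells by edgeR or DESeq2, with 1 at an unadjusted p under 0.05 in edgeR, and 2.01% of all genes were called.

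The cisplatin effects of the 2 lines were then compared in the same edgeR fit. DLX2 responded more negatively in Acis than in A2780 cells, by 0.16 on the log2 scale (interaction of -0.16, SE 0.05, adjusted p = 0.0231), and the adjusted p was 0.0766 with DESeq2, 0.0687 without the filter on low counts and 0.112 with the closest replicates merged. Leaving out 1 library gave adjusted p-values of 0.0503 to 0.0793 for A2780 control replicates 1 and 2, A2780 cisplatin replicates 1 and 3, Acis control replicate 1 and Acis cisplatin replicates 1 and 2. The interaction was -0.07 (SE 0.05) for DLX1, -1.54 (SE 0.66) for DLX3 and -0.98 (SE 0.64) for DLX4, with adjusted p-values of 0.298, 0.115 and 0.345 in edgeR. In A2780 cells the summed counts in control and cisplatin libraries were 4 and 15 for DLX3 and 7 and 13 for DLX4. Both genes passed the filter on low counts through the Acis libraries, so their difference between the lines is poorly measured. Of all genes, 18.9% had an adjusted p under 0.05 for this difference, 5.48% with a more negative effect in Acis cells. For the 7q21 genes no such difference can be given.

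**Figure D3:**
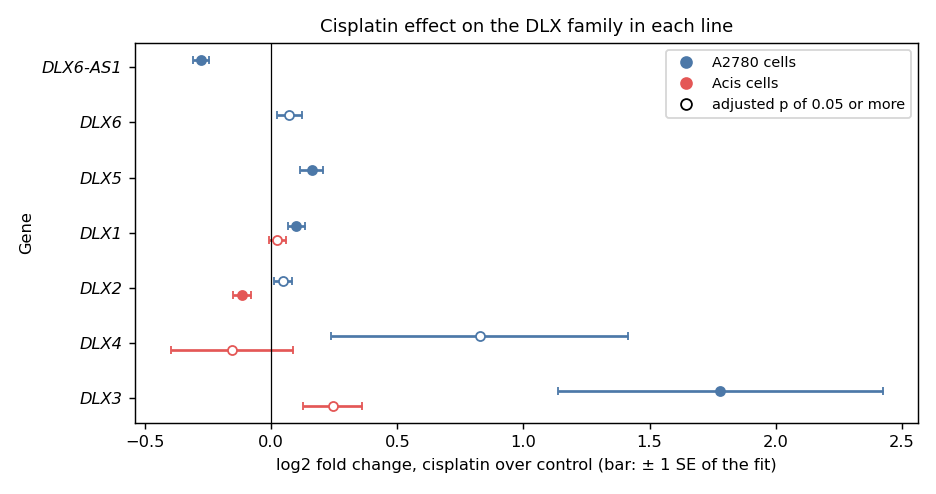
Log2 fold change of cisplatin over control in A2780 and Acis cells for each member, with bars of 1 SE of the edgeR fit and filled points for an adjusted p under 0.05. DLX6-AS1 lies at -0.28, DLX5 at 0.16 and DLX1 at 0.10 in A2780 cells, DLX2 at -0.12 in Acis cells, and DLX3 and DLX4 have wide errors in A2780 cells. The 7q21 genes have no point in Acis cells.

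ATAC-seq marks open chromatin by the insertion of adapters with a transposase, and its peaks were listed by the authors once per condition, from merged replicates after selection of peaks shared by the replicates. There is thus no replicate of a peak list and no test between lists, and the number of reads behind each list is unknown here. The fold enrichment of a peak is that over local background, as given by MACS2. For A2780 cells the lists held 34979 peaks (control) and 32159 (cisplatin), and for Acis cells 24485 and 27321.

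Within 50 kb of the 7q21 genes, the A2780 control list had 7 peaks and the A2780 cisplatin list 7, while each Acis list had 1. Of the 7 A2780 control peaks, 6 had no overlap with an Acis control peak, where this held for 42.1% of all A2780 control peaks. Of the 7 A2780 cisplatin peaks, 6 had none in Acis cisplatin, against 33.2% of all. The A2780 control list had a peak within 1 kb of each of the 3 starts, and the A2780 cisplatin list one at DLX5 and DLX6 only. The peak of each Acis list lay 2.9 kb from the DLX5 start.

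A peak at the start of DLX6 (chr7:97003870-97005767, over the first exon of DLX6 and an exon of DLX6-AS1) had a fold enrichment of 8.22 in A2780 control, and the peak there in A2780 cisplatin had 5.60. A peak at the start of DLX5 (chr7:97024402-97025316) had 7.63 in A2780 control and 5.19 in A2780 cisplatin. Near the start of DLX6-AS1 an intronic peak (chr7:97012498-97013116, summit 1.4 kb inside the gene) had 4.48 in A2780 control and was not in the A2780 cisplatin list. Neither Acis list had a peak within 1 kb of these 3 starts.

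An intergenic peak between DLX6-AS1 and DLX5, with the 300 bases around its summit printed above, had 5.04 in A2780 control and 6.63 in A2780 cisplatin. An intergenic peak 40.2 kb upstream of the DLX5 start had the largest fold enrichment of the locus in both A2780 lists, at 15.47 and 12.96. Neither of them was in an Acis list.

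The one peak found in all 4 lists lies in intergenic sequence 2.9 kb upstream of the DLX5 start, where its sequence was printed above. It was enriched 6.57-fold (control) and 5.90-fold (cisplatin) in A2780 cells, and 13.91-fold and 12.10-fold in Acis cells. The medians of the 4 lists were 9.96, 8.79, 12.8 and 11.04, and the peak lay at percentiles 24.5, 22.7, 55.7 and 56.2 of its own list. By fold enrichment it was therefore below the median in both A2780 lists and above it in both Acis lists. By -log10 q this was reversed. The peak had 82.8 (control) and 44.5 (cisplatin) in A2780 cells, above the median of each list. In Acis cells it had 66.8 and 32.2, below the median of each list.

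At 17q21 the number of peaks was alike in the 4 lists, at 6, 5, 5 and 5. The peak at the start of DLX4 was enriched 10.31-fold (control) and 9.75-fold (cisplatin) in A2780 cells and 16.40-fold and 14.83-fold in Acis cells, at percentiles 52.1, 57.3, 67.9 and 69.5 of its list. That of DLX3 had 5.74, 5.67, 9.26 and 11.53 in the same order, at percentiles 30.5 and 52.8 of the Acis lists and at lower ones of the A2780 lists. Both start peaks were thus present in A2780 cells, where DLX3 and DLX4 had 1 to 6 counts in a library. Their percentile by fold enrichment was higher in the Acis lists. By -log10 q the percentiles of the DLX3 peak were 27.9, 35.9, 51.7 and 67.6 in the same order. Those of the DLX4 peak were 50.9, 63.9, 61.9 and 60.3, with the A2780 cisplatin list the highest.

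At 2q31 the 4 lists held 20, 14, 22 and 20 peaks. The A2780 control list had 4 of 20 peaks without overlap in Acis control, against 42.1% of all its peaks, and A2780 cisplatin had 3 of 14 without overlap in Acis cisplatin, against 33.2%. In the other direction, 6 of 22 Acis control peaks had no overlap in A2780 control, against 16.7% of all, and 10 of 20 Acis cisplatin peaks had none in A2780 cisplatin, against 20.3% of all. Many of the 2q31 peaks lie within METAP1D, a neighbour gene upstream of DLX1. METAP1D had 353 ± 9.65 normalised counts in A2780 control and 252 ± 6.26 in Acis control libraries (SD). The highest peak, over an exon of METAP1D and 18.1 kb upstream of the DLX1 start, was enriched 15.14-fold (control) and 9.84-fold (cisplatin) in A2780 cells. In Acis cells it was enriched 9.51-fold and 12.02-fold. Which gene these peaks act on was not tested. At the start of DLX2 the largest fold enrichment was 6.82, 5.30, 7.52 and 6.12, and at that of DLX1 3.22, 4.01, 3.22 and 3.93.

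**Figure D4:**
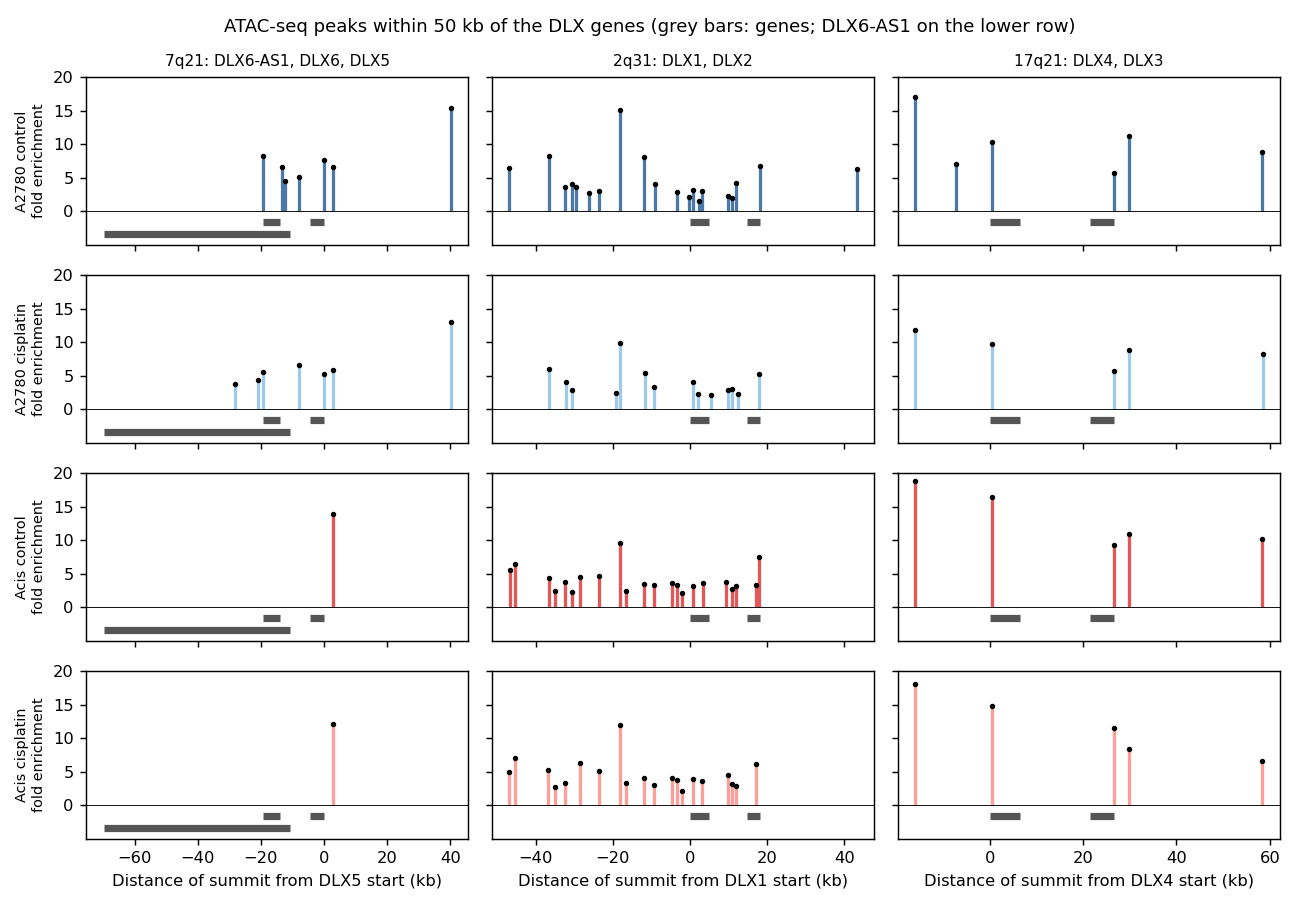
Fold enrichment of each ATAC-seq peak (vertical lines, at its summit) against its distance in kb from the start of DLX5, DLX1 or DLX4, for the 3 loci (columns) and 4 peak lists (rows), with genes as grey bars. At 7q21 the A2780 lists show 7 peaks each and the Acis lists 1 each, at 2.9 kb from the DLX5 start, while 2q31 and 17q21 have 14 to 22 and 5 to 6 peaks in every list.

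Genes around the members were compared between the untreated lines in the same edgeR fit, with the same rule for a call. Of 45 genes of the table within 500 kb of a DLX locus, 31 were tested, and 2 were called higher and 5 lower in Acis cells, where 6.99% of all genes were higher and 12.2% lower. The median absolute log2 fold change of these neighbours was 0.368, against 0.311 for all genes. At 7q21 both tested neighbours were expressed in both lines. SEM1, a proteasome subunit gene, had 190 ± 1.39 normalised counts in A2780 control and 169 ± 6.44 in Acis control libraries (SD, n = 3 each), and SDHAF3, an assembly factor of succinate dehydrogenase, had 91.6 ± 12.4 and 72.2 ± 8.36. Their adjusted p-values were 0.088 and 0.0268 in edgeR, with log2 fold changes of -0.17 and -0.34, so neither was called.

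At 2q31, 1 of 7 tested neighbours was called. ITGA6, an integrin subunit, had 194 ± 5.82 normalised counts in A2780 control and 1024 ± 33.8 in Acis control libraries (SD, n = 3 each, log2 fold change 2.401, SE 0.05, adjusted p = 3.12e-24 in edgeR). DLX2-DT, a long non-coding RNA gene 0.1 kb from DLX2, had 28.4 ± 3.61 and 32.4 ± 5.51 (adjusted p = 0.508). At 17q21, 1 of 22 was higher and 5 lower. COL1A1, a chain of type I collagen, had 844 ± 57.2 normalised counts in A2780 and 16.4 ± 7.12 in Acis control libraries (log2 fold change -5.69, SE 0.15, adjusted p = 1.32e-22 in edgeR). Of the others, NGFR, a neurotrophin receptor, and ACSF2 were lower by log2 fold changes of -2.94 and -1.15, and SGCA, a sarcoglycan, was higher by 2.11.

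A list of 32 regulators and partners of DLX genes, such as BMP and FGF ligands, their receptors and partner homeodomain proteins, had 19 genes tested. Of these 4 were called higher and 6 lower in Acis than in A2780 control libraries, together 52.6% where 19.1% of all genes were called. The median absolute log2 fold change of the list was 2.24 and its signed median -0.069, against 0.311 and -0.01 for all genes. MSX1, a homeodomain repressor that binds DLX proteins, had 639 ± 5.86 normalised counts in A2780 and 0.735 ± 0.638 in Acis control libraries (SD, n = 3 each, adjusted p = 3.53e-25 in edgeR). MEF2C, a transcription factor of the jaw and heart, had 1031 ± 11.1 in A2780 and no count in Acis control libraries, at least 948-fold lower. BMP7, a BMP ligand, was higher in Acis cells, at 539 ± 32.7 against 102 ± 8.71, and so was FGFR2, an FGF receptor, at 61.7 ± 6.41 against 0.311 ± 0.539. MSX1, MEF2C and FGFR2 passed the filter on low counts through the line where they were high, so a call was favoured for them.

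A list of 24 genes known as DLX targets had 13 genes tested, of which 5 were called higher and 6 lower in Acis control libraries, together 84.6%, with a median absolute log2 fold change of 3.62 and a signed median of -0.25. ALPL, an alkaline phosphatase of bone, was 40.9 ± 3.65 in A2780 and 506 ± 23.7 in Acis control libraries (SD, n = 3 each, log2 fold change 3.62, adjusted p = 4.91e-23 in edgeR), and LHX6, a factor of interneurons, was 95.2 ± 4.21 and 259 ± 13.9. RUNX2, a factor of bone formation, was 344 ± 13.9 and 2.61 ± 2.68, and SIX3, a factor of the forebrain, was 125 ± 2.85 and 0, at least 115-fold lower. COL1A1, also a neighbour of DLX3, belongs to this list too. The targets called thus lay on both sides. RUNX2 and SIX3 passed the filter on low counts through the A2780 libraries, so a call was favoured for them.

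Among 38 homeobox genes of the NK-like class, to which the DLX genes are related, 13 were tested, and 5 were called higher and 7 lower in Acis control libraries, together 92.3%, with a median absolute log2 fold change of 6.45 and a signed median of -5.76. Beside MSX1, TLX3 (320 ± 17.5 in A2780 and 1.09 ± 1.06 in Acis control libraries, SD, n = 3 each) and NKX2-1 (33.5 ± 8.04 and 0, at least 30.5-fold lower) were lower. BARX1 (0.712 ± 1.23 and 167 ± 6.55) and NKX2-5 (13.6 ± 6.02 and 246 ± 18.9) were higher, with adjusted p-values of 1.93e-18 and 4.44e-18 in edgeR. MSX1 and MSX2 are in both this list and that of partners, so these lists are not independent of each other. Of the 38 genes, 24 were in the count table. Genes with almost no counts in A2780 or in Acis cells, such as TLX3, BARX1 and NKX2-1, passed the filter on low counts through the other line. A call between the lines was favoured for such genes. The shares called among regulators, targets and NK-like genes are thus not a result about these lists.

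**Figure D5:**
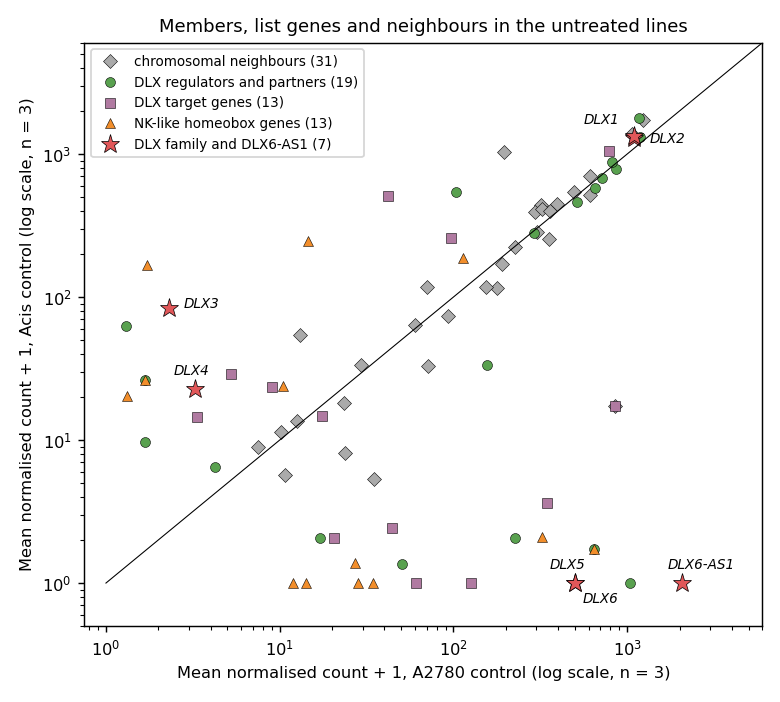
Mean normalised count plus 1 in Acis control against A2780 control libraries (both axes on a log scale, n = 3 each) for the 7 members, 19 regulators and partners, 13 targets, 13 NK-like homeobox genes and 31 chromosomal neighbours tested, with the line of equal levels. DLX5, DLX6 and DLX6-AS1 lie on the lower edge with no count in Acis control libraries, DLX3 and DLX4 lie above the line, and DLX1 and DLX2 lie near it.

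After cisplatin treatment 3 genes of these lists were called in A2780 cells, of which 2 are described, and 2 in Acis cells. By the adjusted p-value alone, 10 of the 19 regulators and partners fell and 2 rose in A2780 cells, and 6 fell and none rose in Acis cells. Of all genes, 28.2% fell and 21.2% rose in A2780 cells, and 12.4% fell and 9.35% rose in Acis cells. In A2780 cells FGF8, an FGF ligand, was the one called regulator (3.22 ± 2.06 to 12.9 ± 2.29 normalised counts, SD, n = 3 each, adjusted p = 0.000228 in edgeR), and ENSG00000253102, a long non-coding RNA gene at 17q21, the one called neighbour (6.55 ± 0.856 to 14.8 ± 2.403, adjusted p = 0.0466). The call of ENSG00000253102 was lost with DESeq2 (adjusted p = 0.211) and without any one of the 6 A2780 libraries (0.0568 to 0.136). No target was called in A2780 cells by edgeR or DESeq2, and of the 13 targets 3 had an unadjusted p and 3 an adjusted p under 0.05 in edgeR. In Acis cells GNRH1, the gonadotropin-releasing hormone gene, rose from 13.8 ± 2.15 to 33.2 ± 5.45 (adjusted p = 0.000156) and GBX2 from 13.4 ± 3.38 to 27.9 ± 7.04 (adjusted p = 0.007), and both are in the list of targets. GBX2 was not called with DESeq2 (adjusted p = 0.0803), without Acis control replicate 2 (0.0573) or without Acis cisplatin replicate 1 (0.0712). In the other 3 lists no gene was called in Acis cells by edgeR or DESeq2, while in edgeR 6 regulators, 3 NK-like homeobox genes and 5 neighbours had an unadjusted p under 0.05, and 6, 2 and 3 of them an adjusted one.

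The genes whose log2 CPM over the 12 libraries were most like those of DLX6-AS1 were COL1A2, L3MBTL4, ALPK2, ENSG00000224127 and STRA6, with Pearson r of 0.9998 to 0.9994. COL1A2, a chain of type I collagen at chr7:94394895-94431227, on the same chromosome as DLX6-AS1, had 787 ± 26.9 normalised counts in A2780 control, 597 ± 35.1 in A2780 cisplatin and 0 in Acis control libraries (SD, n = 3 each). The 12 libraries fall into the 2 lines, and 437 of the 15753 other genes had an r above 0.99 over them. The r of DLX5 and DLX6 with DLX6-AS1 was 0.9989 and 0.9982. For DLX1 the 5 genes most alike were FADS3, SLC35E4, JTB, FBXL6 and TBL2, with r of 0.991 to 0.985, and only 1 gene had an r above 0.99.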

How the data were processed

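RNA-seq of A2780 and Acis cells, each untreated or given 200 µM cisplatin for 3 h (12 libraries, 3 per group), and 4 lists of ATAC-seq peaks, 1 per condition, were used. XR-seq samples were not analysed here. Per the methods and the labels, the authors aligned stranded single-end reads with STAR 2.7.3, removed PCR duplicates with Picard and deposited raw counts made by HTSeq 0.11.1 with the reverse strand setting. Removal of duplicates from single-end reads limits how many reads a position can hold, and the members had at most 0.436 counts per exon base. For the peaks, the authors trimmed reads with cutadapt 1.15, aligned them with Bowtie2 2.4.1 to hg38, removed duplicates and reads of chromosome Y or mitochondria, and called peaks with MACS2. The deposited signal ratio is a fold enrichment, and -log10 p and -log10 q values are given as deposited by the authors, with a MACS2 display score that was not used. Cells were treated with DNase before ATAC-seq.

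Of the 23622 genes, 23513 had a GENCODE 44 entry, and every gene has at least 10 counts over the libraries. Counts were fitted as 4 group means with edgeR 4.0.16 in R 4.3.3 (TMM, default filter on low counts, 15760 genes, common dispersion 0.000304, 8 residual degrees of freedom, quasi-likelihood test, Benjamini-Hochberg adjustment). DESeq2 1.42.0 on the same genes was an alternative, with total-count and RLE scaling, no filter, libraries of 2 groups alone, the replicate block, libraries left out and merged replicates. Data were simulated with 14685 genes and 200 changed, for A2780 cisplatin against control. Genes of low counts were left out, and the dispersion was set above the fitted one. By an adjusted p under 0.05 alone, edgeR recovered 86% of 2-fold and 95% of 4-fold changes, and 5.24% of the genes that passed were unchanged. For DESeq2 these values were 76%, 91% and 0.6%. The rule for a call, which also asks for a 2-fold change, was not simulated. Between replicates the variance was 0.736 to 1.54 times the counting noise, and below it in all 3 pairs of A2780 control. Because removal of duplicates can lower this variance, replicates were kept, and an alternative summed the closest pair of each group. Replicate numbers did not pair the libraries, with correlations of -0.205 to 0.282.

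Counting intervals are exact binomial 95% intervals of a ratio of summed counts, and the floor is 3 counts over a group. Ratios within a library were compared with two-sided exact permutation tests in scipy 1.17.1. A shared peak overlaps by at least 1 bp, and a start peak lies within 1 kb of the annotated start. The members, gene lists and tests were chosen with earlier results of these data known. Of each list, at most 5 called genes per comparison with the smallest adjusted p-values are named, beside the 5 genes with the highest Pearson r to DLX6-AS1 and to DLX1, except for 2 list genes that are not reported here.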

Additional observations from a re-analysis of the deposited data

Results flagged for a closer look

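The cisplatin effect on DLX2 differed between the lines by -0.16 on the log2 scale (Acis minus A2780, SE 0.05, adjusted p = 0.0231 in edgeR's quasi-likelihood test). DLX2 was lower in the 3 Acis cisplatin libraries (1203 to 1272 normalised counts) than in the 3 Acis control libraries (1318 to 1345), and overlapped between the A2780 groups (1085 to 1145 and 1069 to 1115). The adjusted p ranged from 0.00179 to 0.112 over the alternatives and was above 0.05 in 10 of 18, including DESeq2 (0.0766), so the difference rests on the settings and libraries used. All but 1 of the other members with a tested difference had adjusted p-values above 0.05 in every alternative that gave one, and DLX4 had none with DESeq2. The exception was DLX1, at 0.0333 with total counts as library size.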

How the results depend on the processing

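The fall of DLX6-AS1 in A2780 cells held in all 19 alternatives (log2 fold change -0.307 to -0.162). The 6 A2780 peaks at 7q21 without an Acis counterpart stayed 5 to 6 when overlap, the q threshold or the flank was changed. The replicate block changed neither the members called (1 in A2780, 0 in Acis) nor the 1 member whose effects differed by the adjusted p alone. With 2 counts of the 7q21 genes in all Acis libraries, and at most 15 counts of DLX3 or DLX4 in an A2780 group, depth limits what can be seen. The causes of the changes below were not tested. Members called in A2780 cells became 0 with DESeq2 and in the fit to the libraries of 2 groups alone, where DLX3 was filtered out, 0 to 1 without single libraries, and 4 by the adjusted p alone. In Acis cells 1 member passed by the adjusted p alone. For the difference of the effects no member reached 2-fold, and the count of 1 member by the adjusted p alone became 0 with DESeq2, without the filter and with merged replicates, 2 with total counts and 0 to 1 without single libraries. The Acis effect of DLX4 ranged from -0.263 to 0.0549 without single libraries, with 0.00708 among the values above 0.

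By the adjusted p alone, the lists had 12 regulators, 3 targets, 3 NK-like homeobox genes and 12 neighbours in A2780, and 6, 2, 2 and 3 in Acis cells, and 12 neighbours higher and 10 lower between the lines. With DESeq2 there was 1 target in Acis cells and 0 neighbours in A2780 cells. Without the filter 8 NK-like homeobox genes were higher in Acis cells and 2 were called in A2780 cells, also 2 with total counts. Without single libraries the calls ranged from 1 to 2 for regulators, 1 to 2 for NK-like homeobox genes and 0 to 1 for neighbours in A2780 cells, and from 1 to 2 for targets, 0 to 1 for NK-like homeobox genes and 0 to 1 for neighbours in Acis cells. With Spearman in place of Pearson correlation, 1 of the 5 genes most like DLX6-AS1 and 1 of the 5 most like DLX1 were the same.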

Other observations

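At 2q31 the ATAC-seq peaks had low fold enrichments with high significance. The 20 peaks of the A2780 control list within 50 kb of DLX1 and DLX2 had a median fold enrichment of 3.65 and a median -log10 q of 128, where peaks of that list with a fold enrichment within 10% of theirs had a median -log10 q of 23.0. Of the 20 peaks 19 lay above the median of peaks of like fold enrichment. The same held for 14 of 14 peaks in A2780 cisplatin, 22 of 22 in Acis control and 20 of 20 in Acis cisplatin. The peaks covered 17578 bp at 2q31 in A2780 control, against 6338 bp at 7q21 and 4459 bp at 17q21 in windows that extend 50 kb beyond the genes.

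Both 17q21 genes had a peak at their start in the A2780 control list, with fold enrichments of 5.74 for DLX3 and 10.31 for DLX4, while the 3 libraries together held 4 counts of DLX3 and 7 of DLX4. In the same list DLX1, with 3329 counts, had 2 peaks at its start, the higher with a fold enrichment of 3.22. By -log10 q the order was different, with 160.2 for that DLX1 peak, 34.5 for the DLX3 peak and 69.9 for the DLX4 peak. How the fold enrichment at a start relates to counts over all genes was not tested.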
